A study of Bos taurus with 252 samples.

Results

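The 10 genes described here belong to the JAK and STAT signaling pathway. They are the 4 Janus kinases (JAK1, JAK2, JAK3 and TYK2), 5 of the transcription factors that these kinases activate (STAT3, STAT4, STAT5A, STAT5B and STAT6) and SOCS3, an inhibitor of the kinases. They were picked by gene symbol among the 33282 genes of the count table, and all 10 were among the 19056 genes abundant enough to be tested. Their mRNA was measured in whole blood of 42 crossbred steers, each bled before administration on day 0, on days 3, 7 and 14 and on days 21 and 56, with 1 library for each bleed. The 7 groups of 6 steers were a negative control without antimicrobial administration (NC) and steers given 1 antimicrobial once, under the skin, after the day 0 bleed. The antimicrobials were the cephalosporin ceftiofur (CEFT), the fluoroquinolone enrofloxacin (ENRO), the phenicol florfenicol (FLOR), oxytetracycline (OXYT) and the macrolides tildipirosin (TILD) and tulathromycin (TULA). Steers of all 7 groups, NC included, had received tildipirosin, a hormone implant, antiparasitic drugs and respiratory and clostridial vaccines at the start of backgrounding, so NC is not a group that never met an antimicrobial. Per the paper, each group was kept in a pen of its own, and NC was processed first on the sampling days after day 0. Pen, processing order and treatment therefore cannot be told apart in any comparison with NC. The groups were sequenced on 3 lanes. Lane 1 held NC, ENRO and 2 FLOR steers, lane 2 held TULA, the other 4 FLOR steers and 4 TILD steers, and lane 3 held CEFT, OXYT and the other 2 TILD steers.

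Cytokines that bind their receptors bring together the Janus kinases attached to the receptor chains. The kinases phosphorylate each other, the receptor and the STAT proteins, which then pair, enter the nucleus and bind the promoters of target genes. JAK1 and TYK2 serve the interferon receptors, JAK2 serves the receptors for erythropoietin, growth hormone and granulocyte-macrophage colony-stimulating factor, and JAK3 is a kinase of blood cells that works with the common gamma chain of the interleukin receptors. SOCS3 is itself induced by STAT3 and shuts off signaling through the gp130 receptor chain. The libraries measure mRNA, and the phosphorylation through which the pathway acts was not measured.

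Library totals ran from 26.1 to 74.1 M counts with a median of 43.6 M, and the lowest count of any member in any library was 341, for JAK2. Levels are given as CPM, counts scaled to library size with TMM factors, and levels of different genes are not compared because transcript lengths were not at hand. The markers of the expected blood cells were present, with no measured marker at 0 in every library. Their summed levels moved over the days. The median sum of 8 T cell markers went from 1805 CPM on day 0 to 2680 CPM on day 56, that of the 6 neutrophil markers measured from 2558 CPM on day 0 to 1356 CPM on day 21, that of 7 monocyte markers from 568 CPM on day 0 to 274 CPM on day 14, and that of 7 erythroid markers from 2338 CPM on day 0 to 35425 CPM on day 21. In whole blood, fewer cells of a type and less RNA per cell cannot be told apart, and this holds for every difference reported here.

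Of the 10 members, 9 changed over the days of the trial. JAK1, as listed in the table, did not pass the test. JAK2, TYK2, STAT3, STAT5B and SOCS3 fell, JAK3 and STAT4 rose, and STAT5A and STAT6 rose late. These calls come from edgeR's quasi-likelihood test with steer as a block at a false discovery rate (FDR) of 0.05, by which 77% of all genes tested changed over days, so 9 of 10 members is a share of the kind seen across the blood transcriptome. On day 3, 2 members were higher and 5 lower than on day 0, against 20.5% and 18.3% of all genes. The counts were 2 and 5 on day 7 (24% and 19.7% of all genes), 2 and 5 on day 14 (32.7% and 29.9%), 3 and 5 on day 21 (32.6% and 31.6%) and 4 and 4 on day 56 (32.5% and 30.7%). The median log2 fold change of the 10 members was lowest on day 14, at -0.23, against 0.03 over all genes. In the 6 NC steers alone 4 of 10 members changed over days, against 27.8% of all genes, and in the libraries of lanes 1, 2 and 3 alone 8, 8 and 9 members did, against 53.7%, 60.8% and 60.9% of all genes. Day stands for time on feed, age and sampling occasion alike, and these cannot be told apart.

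**Figure D1:**
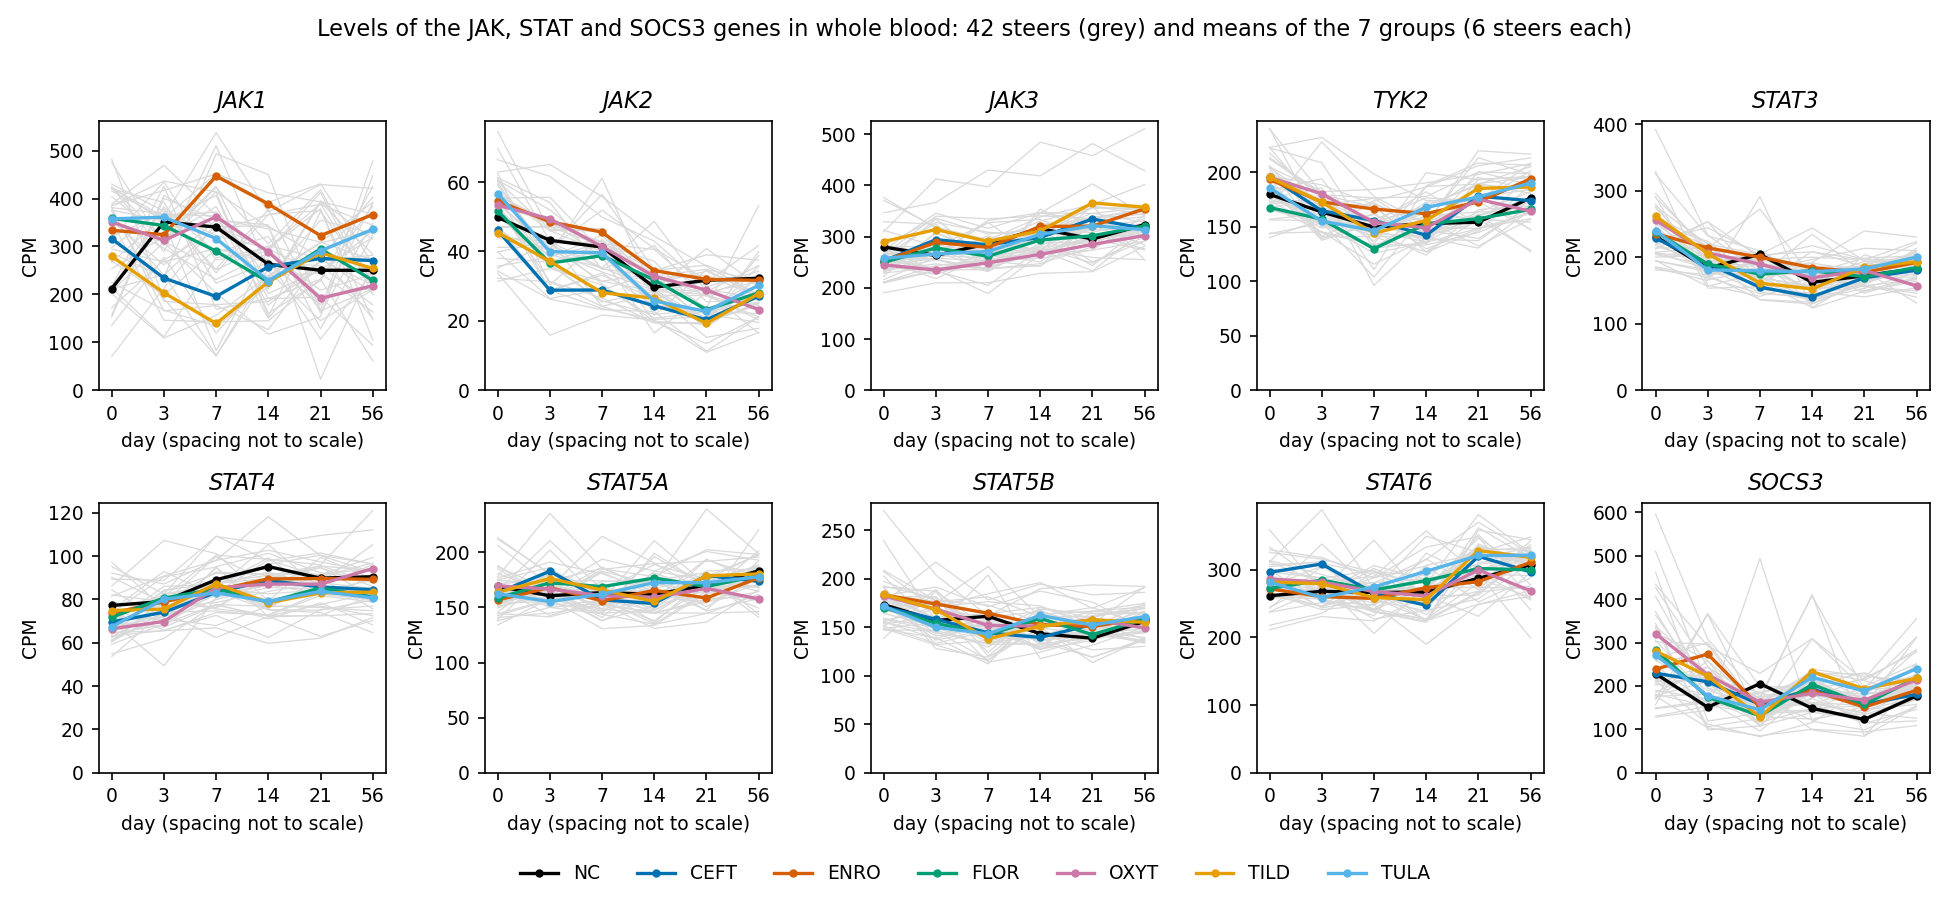
Levels of the 10 genes in CPM (vertical axes, from 0) on each sampling day (horizontal axis, not to scale), with 1 grey line for each of 42 steers and 1 coloured line for the mean of each group of 6 steers. JAK2, STAT3 and SOCS3 start high and fall, JAK3 and STAT4 rise, and the group means of a gene mostly run close together beside the spread between steers.

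JAK2, a kinase of the erythropoietin and growth hormone receptors, had the deepest fall of the members. Its level lay between 31.4 and 74.5 CPM on day 0, with a median of 53.5 CPM, and between 10.9 and 40.9 CPM on day 21, with a median of 24.6 CPM. The ranges overlapped, but JAK2 was lower on day 21 than on day 0 in all 42 steers. Mean levels were 51.1 ± 10.7 CPM on day 0 (SD, n = 42), 40.5 ± 9.64 CPM on day 3, 37.7 ± 9.62 CPM on day 7, 29.3 ± 7.66 CPM on day 14, 25.4 ± 7.31 CPM on day 21 and 28.6 ± 7.33 CPM on day 56. The means of days 14, 21 and 56 were closer to each other than 1 SD between steers, as were those of days 3 and 7. That SD does not measure change within a steer, and differences between days after day 0 were not tested. Against day 0, the log2 fold change of JAK2 was -0.35 (SE 0.0613) on day 3, -0.81 (SE 0.0618) on day 14 and -1.03 (SE 0.0620, edgeR FDR 2.3e-37) on day 21, which is a ratio of 0.489. The fall of day 21 was present in the libraries of each lane taken alone, at -0.79, -1.21 and -1.10 for lanes 1, 2 and 3, and in the 6 NC steers alone, at -0.66 (edgeR FDR 0.0107).

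JAK3, the kinase paired with the common gamma chain, rose. The median went from 255 CPM (range 190 to 376) on day 0 to 299 CPM (range 228 to 485) on day 14 and 321 CPM (range 254.5 to 511) on day 56. The ranges overlapped widely, and the rise was seen within steers, since JAK3 stood above its day 0 level in 26 of 42 steers on day 3, in 36 on day 14 and in 39 by day 56. Its log2 fold change was 0.08 (SE 0.0293) on day 3, 0.20 on day 14, 0.28 on day 21 and 0.33 (SE 0.0294, edgeR FDR 1.5e-21) on day 56. The T cell markers, all 8 of which were higher on day 14 and on day 56, moved the same way, and their part in the rise of JAK3 was not tested. In the 6 NC steers alone JAK3 did not pass the test on any day, with values of -0.09 on day 3 (edgeR FDR 0.912) and 0.21 on day 56 (edgeR FDR 0.0585).

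TYK2, which serves the interferon and interleukin-12 receptors, fell early and came back. Its mean was 188 ± 24.4 CPM on day 0 (SD, n = 42), 149 ± 21.4 CPM on day 7, 155 ± 20.01 CPM on day 14, 171 ± 23.4 CPM on day 21 and 179 ± 21.5 CPM on day 56. It lay below the steer's own day 0 level in 39 of 42 steers on days 7 and 14 and in 29 on day 56. On the log2 scale the fold change was -0.33 (SE 0.0340, edgeR FDR 1.3e-16) on day 7 and -0.07 on day 56, when it no longer passed the test (edgeR FDR 0.0609).

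JAK1, a partner of most other Janus kinases, had the largest spread of the members for its level, and it moved against another row of the table. In RefSeq the gene has a neighbor, the microRNA gene MIR101-1 of 83 bases, with 4 entries and no protein-coding gene between them. The MIR101-1 row held 2.84% to 93.8% of the sum of both rows, with a median of 24.6%, and it was larger than JAK1 in 58 libraries. Over all libraries, which share the same steers and lanes, the CPM of the rows had a Pearson correlation of -0.79. JAK1 alone ranged from 23.4 to 537 CPM, with a median coefficient of variation of 28.6% within a group and day, above that of 79.4% of 10953 well expressed genes. The sum of both rows ranged from 251 to 607 CPM with a coefficient of variation of 11.1%. Whether reads of JAK1 transcripts were listed under MIR101-1 was not tested, since the counts carry no coordinates, and the sum is given beside JAK1 as listed in the comparisons of days and treatments. The summed row was chosen after the values were seen.

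As listed, JAK1 had a mean of 315 ± 102 CPM on day 0 (SD, n = 42) and 268 ± 82.6 CPM on day 14, and it did not pass the test over days (edgeR FDR 0.360) or on any single day. The sum with the MIR101-1 row was 460.4 ± 51.2 CPM on day 0, 410.4 ± 47.96 CPM on day 3, 418 ± 71.03 CPM on day 7, 364 ± 63.2 CPM on day 14, 404 ± 48.8 CPM on day 21 and 410.5 ± 54.9 CPM on day 56. It was lower than on day 0 by the test on all 5 days, with a log2 fold change of -0.35 (SE 0.0340, edgeR FDR 2.9e-19) on day 14, when 37 of 42 steers lay below their own day 0 level.

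**Figure D2:**
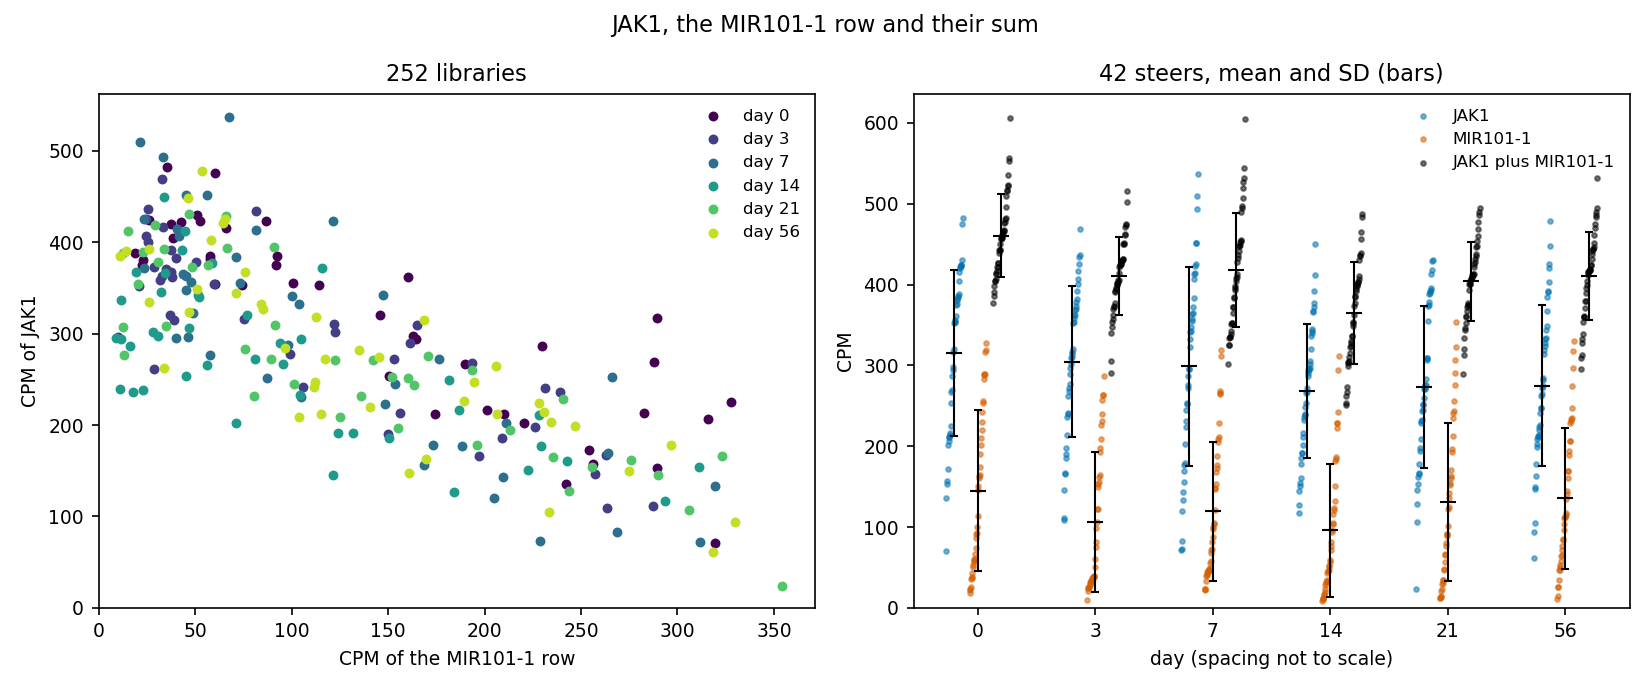
Left, CPM of JAK1 (vertical axis) against CPM of the MIR101-1 row (horizontal axis) in each library, coloured by day; right, 1 point a steer with the mean and SD over 42 steers as bars, for JAK1, the MIR101-1 row and their sum in CPM on each day (horizontal axis, not to scale). High values of 1 row go with low values of the other, and the sum has a smaller spread than JAK1 alone.

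STAT3, the factor downstream of interleukin-6 and the granulocyte colony-stimulating factor, was lower in all 42 steers by day 14. Its level on day 0 lay between 181 and 392 CPM with a median of 236 CPM, and on day 14 between 124 and 244 CPM with a median of 166 CPM. The ranges overlapped, so the drop was read within steers. Group means on day 0 went from 229 CPM in CEFT to 262 CPM in TILD, and on day 14 from 141 CPM in CEFT to 184 CPM in ENRO. Its log2 fold change was -0.30 (SE 0.0420) on day 3, -0.42 on day 7, -0.54 (SE 0.0421, edgeR FDR 1.9e-26) on day 14, -0.45 on day 21 and -0.38 on day 56. It passed the test on all 5 days within each of the 3 lanes, and on days 14 and 21 in the NC steers alone.

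STAT4, the factor of interleukin-12 signaling in T and NK cells, rose early and stayed up. Its mean was 71.6 ± 10.8 CPM on day 0 (SD, n = 42), 76.9 ± 9.83 CPM on day 3, 85.3 ± 10.7 CPM on day 7, 85.3 ± 12.6 CPM on day 14, 86.4 ± 10.3 CPM on day 21 and 86.3 ± 11.3 CPM on day 56. The means from day 7 on differed by far less than 1 SD between steers, and the differences between these days were not tested. STAT4 was above the steer's own day 0 level in 40 of 42 steers on days 7 and 56. The log2 fold change was 0.11 (SE 0.0277) on day 3, 0.25 on days 7 and 14 and 0.27 (edgeR FDR 7.2e-18) on day 21, and it passed the test on days 7 to 56 within each lane.

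STAT5A and STAT5B carry the signals of interleukin-2, prolactin and growth hormone, and they moved differently. STAT5B fell from 177 ± 25.4 CPM on day 0 (SD, n = 42) to 149 ± 23.1 CPM on day 7, with a log2 fold change of -0.24 (SE 0.0325, edgeR FDR 4.5e-11), and stayed at 151 ± 20.2, 150.5 ± 16.6 and 157 ± 16.8 CPM on days 14, 21 and 56. It lay below the steer's own day 0 level in 35 of 42 steers on days 7 and 21. STAT5A was at 163 ± 19.02 CPM on day 0 and 164 ± 19.9 CPM on day 14, and passed the test on day 56 alone, at 176 ± 17.2 CPM with a log2 fold change of 0.10 (SE 0.0305, edgeR FDR 0.00166), higher in 32 of 42 steers. The difference between the changes of these genes was not tested. They are close paralogs, with 1 entry between them in RefSeq, and how reads that fit both were counted is not known, so their values carry that uncertainty.

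STAT6, the factor of interleukin-4 and interleukin-13 signaling, did not pass the test before day 21 and was higher from then on. Its median was 277 CPM (range 211 to 358) on day 0, 266 CPM (range 206 to 343) on day 7, 304 CPM (range 231 to 381) on day 21 and 311 CPM (range 199 to 348) on day 56. The ranges overlapped on every day. The log2 fold change was 0.13 (SE 0.0328, edgeR FDR 0.000201) on day 21, with 34 of 42 steers above their own day 0 level, and 0.12 (edgeR FDR 0.000411) on day 56. On day 56 the value was 0.17 in lane 1, 0.22 in lane 2 and -0.02 in lane 3, where it did not pass the test (edgeR FDR 0.839).

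SOCS3, the feedback inhibitor, fell by the largest amount after JAK2 and varied most within a group and day after JAK1 as listed. On day 0 it ran from 128 to 596 CPM with a median of 221 CPM, and on day 21 from 84.03 to 231 CPM with a median of 156 CPM. The high values of day 0 were gone by day 21, while the low ends of the ranges were closer together. Mean levels were 265 ± 109 CPM on day 0 (SD, n = 42), 205 ± 65.5 CPM on day 3, 154 ± 61.98 CPM on day 7, 196 ± 67.6 CPM on day 14, 163 ± 39.1 CPM on day 21 and 205 ± 52.4 CPM on day 56. Its log2 fold change was -0.37 on day 3, -0.76 (SE 0.0923, edgeR FDR 5.5e-13) on day 7, -0.44 on day 14, -0.69 (SE 0.0916, edgeR FDR 9.4e-12) on day 21 and -0.35 on day 56. It was lower than on day 0 in 37 of 42 steers on day 7. In the NC steers alone the day 7 value was -0.19 (edgeR FDR 0.805), with NC steer 7 at 493 CPM on that day and the other 5 between 85.5 and 186 CPM, and the day 21 value was -0.92 (edgeR FDR 0.0246). Of the 6 neutrophil markers measured, 5 were lower on day 7 and all 6 on day 21, and their part in the fall of SOCS3 was not tested.

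Within a day, each treatment was compared with NC at an FDR of 0.1. Of 300 tests on the members from day 3 to day 56, 3 passed, all on day 3. They were JAK2 in CEFT, SOCS3 in ENRO and JAK1 in TILD. Without the filter on low counts none of the 3 passed by edgeR (FDR 0.141, 0.106 and 0.126), and 33 of 300 had an unadjusted p under 0.05. DESeq2 called 14 of 300. The shares of all genes in these alternative fits were not at hand, so nothing about the members is read from these counts. In the main edgeR fit 0.611% of all tests passed over the 30 comparisons. There, 8.34% of all genes passed in CEFT, 2.48% in ENRO and 2.48% in TILD on day 3. The groups of all 3 calls overlapped, while 3.58%, 2.18% and 2.5% of all genes had groups that did not overlap in CEFT, ENRO and TILD on that day. Before treatment, on day 0, 0 of 60 member tests passed by edgeR and 0 by DESeq2, with 4 and 5 at an unadjusted p under 0.05, and 0.00437% of all tests passed by edgeR. With lane as a term over the 42 libraries of a day, 0 of 60 passed on day 0, but 15 had an unadjusted p under 0.05 by edgeR. On days 3 to 56 that fit had 17 of 300. The share of all genes at that p was not at hand for the fit with lane, so these counts are not read as results about the members. The comparisons with NC on a day share the same 6 NC libraries.

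**Figure D3:**
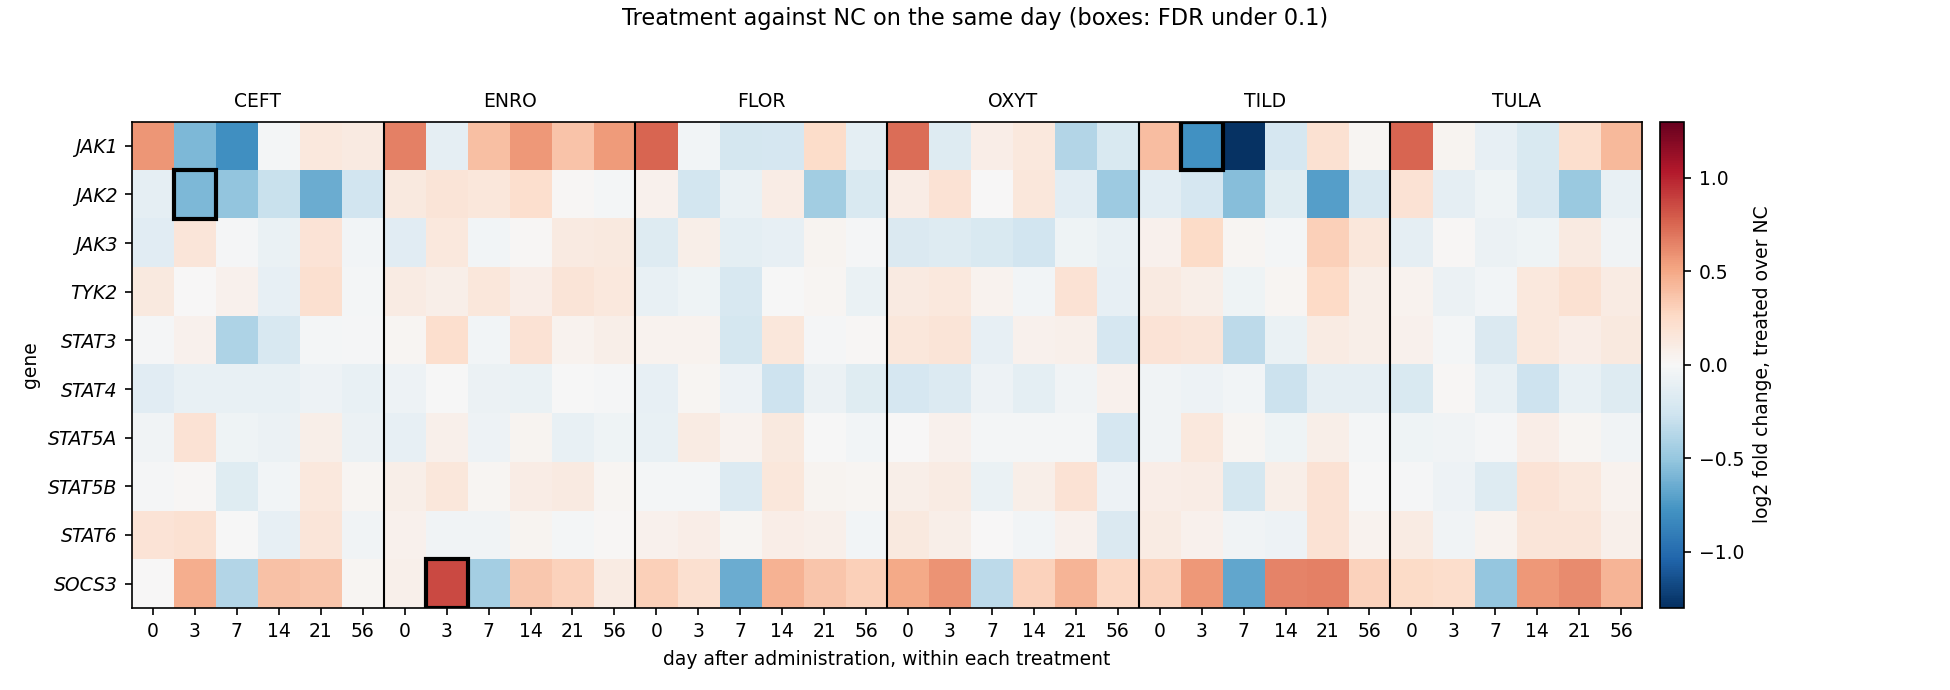
Log2 fold change of each treatment against NC on the same day (colour, from -1.3 to 1.3) for the 10 genes (vertical axis) and day 0 and the days after it within each treatment (horizontal axis), 6 steers against 6. The 3 boxed cells are the calls at an FDR under 0.1, all on day 3.

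JAK2 was lower in CEFT than in NC on day 3. The CEFT steers ran from 15.9 to 42.1 CPM with a median of 28.8 CPM, and the NC steers from 35.3 to 48.9 CPM with a median of 43.9 CPM. All 6 CEFT steers lay below the NC median, and the groups overlapped through 1 CEFT steer at 42.1 CPM. The means were 28.8 ± 8.44 and 43.2 ± 5.29 CPM (SD, n = 6 each), with a log2 fold change of -0.58 (SE 0.185, edgeR FDR 0.0976). On day 0 the means were 46.1 and 49.8 CPM, and the log2 change from the steer's own day 0 was -0.70 in CEFT and -0.20 in NC, a difference of -0.50 (exact two-sided permutation p = 0.0216). This test and the like tests below reuse the day 3 values by which the pairs were picked, so they are no separate support for the calls. CEFT was sequenced on lane 3 and NC on lane 1, so lane and treatment cannot be told apart in this pair. With lane as a term over the 42 libraries of the day, where FLOR and TILD, each spread over 2 lanes, tie the lanes together, the log2 fold change was -0.57 (SE 0.380) and the call was lost (edgeR FDR 0.660). It was kept in 1 of 12 fits that left out 1 steer, the fit without CEFT steer 8 (edgeR FDR 0.0293). Over the 12 fits the log2 fold change of JAK2 lay between -0.72 and -0.46. The number of all genes that passed ran from 0 to 3406, so a lost call is not particular to JAK2.

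SOCS3 was higher in ENRO than in NC on day 3. The ENRO steers ran from 219 to 367 CPM with a median of 258 CPM, and the NC steers from 104 to 230 CPM with a median of 152 CPM. All 6 ENRO steers lay above the NC median, and the groups overlapped through NC steer 5 at 230 CPM. The means were 273 ± 51.99 and 151 ± 46.2 CPM (SD, n = 6 each), with a log2 fold change of 0.86 (SE 0.193, edgeR FDR 0.0726), a ratio of 1.81. ENRO and NC were both on lane 1, in separate pens. A lane adjustment treats them alike, so it cannot test this contrast. With lane as a term the log2 fold change stayed at 0.86 (edgeR FDR 0.0623), and after ComBat_seq by lane it was 0.82 (edgeR FDR 0.0815). Leaving out 1 steer kept the call in 3 of 12 fits, those without ENRO steer 2, NC steer 1 or NC steer 5. The FDR over these 12 fits lay between 0.0264 and 0.161, and the number of all genes that passed ran from 18 to 1023. On day 0 the means were 239 CPM in ENRO and 228 CPM in NC. The change from day 0 was 0.23 in ENRO and -0.55 in NC on the log2 scale. This is a difference of 0.78 (exact two-sided permutation p = 0.0541), to which the fall in NC added more than the rise in ENRO. In ENRO the summed neutrophil markers of day 3 ran from 1618 to 4372 CPM, against 1371 to 2078 CPM in NC, and the summed interferon response genes from 1391 to 7421 CPM, against 754 to 1664 CPM. On day 0 the median neutrophil sums were already 3058 CPM in ENRO and 2199 CPM in NC, and the median interferon sums were 1475 and 1982 CPM. In OXYT on day 3 the neutrophil sums ran from 1713 to 3134 CPM and the interferon sums from 1421 to 4968 CPM. SOCS3 in OXYT had a mean of 226 CPM and passed by DESeq2 (FDR 0.0929) but not by edgeR. The neutrophil sums ran from 1302 to 2038 CPM in CEFT and from 1988 to 3079 CPM in TILD, and the interferon sums from 957 to 7656 CPM and from 612 to 11832 CPM. The part of these marker sums in the difference was not tested.

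JAK1 as listed was lower in TILD than in NC on day 3, at 203 ± 48.3 against 351 ± 89.1 CPM (SD, n = 6 each), with a log2 fold change of -0.79 (SE 0.1996, edgeR FDR 0.0950). TILD ran from 146 to 277 CPM and NC from 213 to 437 CPM. The groups overlapped, and the share of the sum that stood under MIR101-1 had a median of 48.7% in TILD and 7.72% in NC. With the MIR101-1 row added, the means were 387 ± 38.5 and 429 ± 33.9 CPM and the log2 fold change was -0.15 (edgeR FDR 0.439). TILD was on lanes 2 and 3 and NC on lane 1, and with lane as a term the value for JAK1 as listed was -0.37 (edgeR FDR 0.897). Leaving out 1 steer kept the call in 3 of 12 fits, those without NC steer 5, NC steer 15 or TILD steer 7. The FDR lay between 0.0890 and 0.197, and the number of all genes that passed ran from 8 to 455. On day 0 JAK1 as listed had a mean of 279 CPM in TILD and 212 CPM in NC, the lowest of the group means. The median share under MIR101-1 in NC was 53.6% on that day. The log2 change of JAK1 as listed from the steer's own day 0 was -0.38 in TILD and 0.88 in NC. This is a difference of -1.25 (exact two-sided permutation p = 0.0238), to which the rise in NC added more than the fall in TILD. For the sum, the change was -0.29 in TILD and 0.0031 in NC, a difference of -0.29 (exact two-sided permutation p = 0.0152). The sum was below day 0 in all 6 TILD steers and in 3 of 6 NC steers. Of these 4 tests of change from day 0, 3 were run on pairs already called and 1 on the sum, which was not called, and the Benjamini-Hochberg values over them were 0.0541 for SOCS3 in ENRO and 0.0317 for the other 3.

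**Figure D4:**
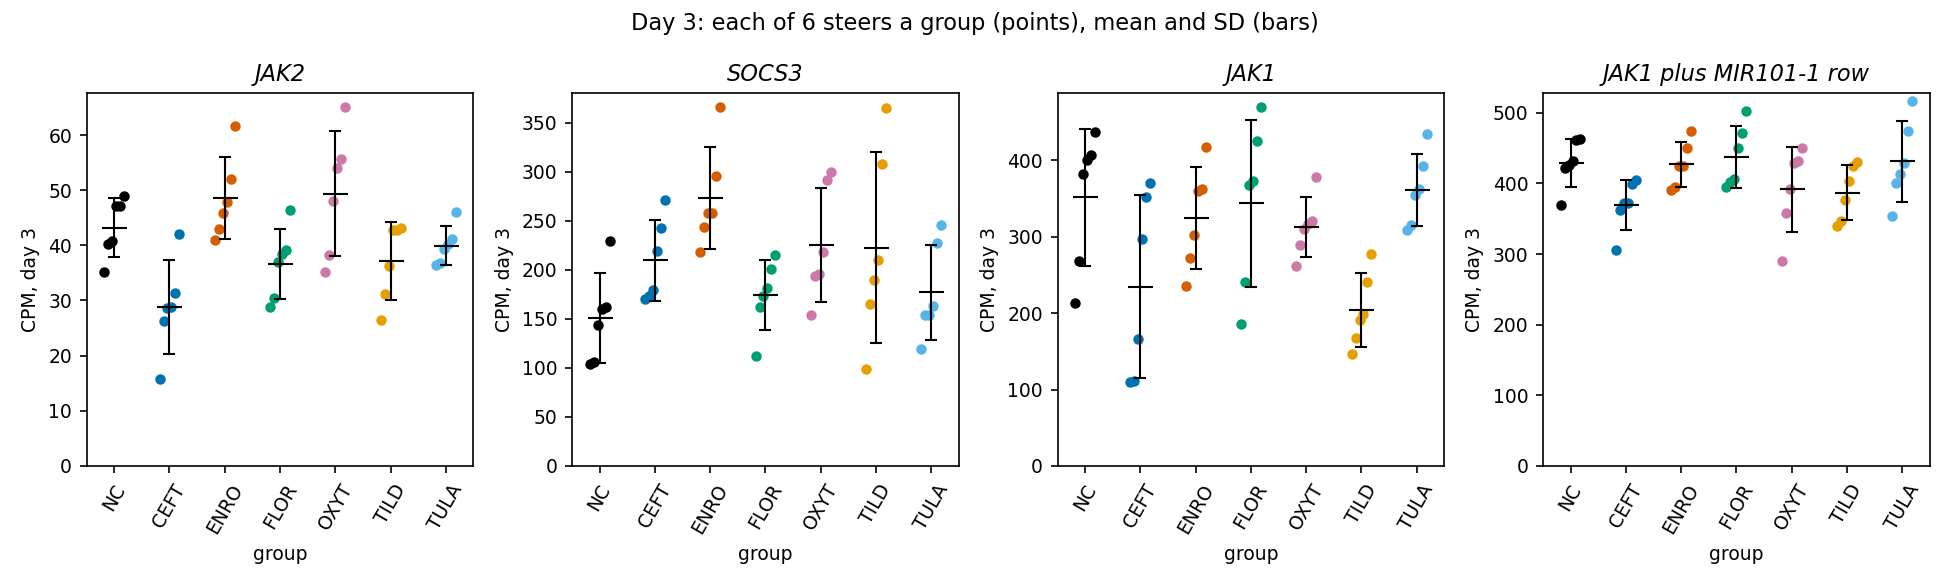
CPM on day 3 (vertical axes) of the called genes and of the sum of JAK1 and the MIR101-1 row in the 7 groups (horizontal axis), with 1 point a steer and the mean and SD as bars. JAK2 in CEFT and SOCS3 in ENRO overlap NC through 1 steer each, and the JAK1 gap between TILD and NC is smaller in the summed row.

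The other comparisons with NC did not pass by edgeR's quasi-likelihood test, and an unadjusted p under 0.05 was found in 30 of 300 member tests against 10% of all tests. The largest fold change of the 300 was that of JAK1 as listed in TILD on day 7, at 139 ± 82.2 against 340.4 ± 45.8 CPM (-1.29, edgeR FDR 0.292, DESeq2 FDR 0.00859), where the sum gave -0.19 (edgeR FDR 0.646). For JAK2 on day 21 the means were 31.7 ± 6.40 CPM in NC, 19.3 ± 6.22 CPM in TILD, 20.3 ± 8.86 CPM in CEFT, 22.7 ± 4.603 CPM in TULA, 23.2 ± 3.67 CPM in FLOR, 28.9 ± 4.82 CPM in OXYT and 31.98 ± 4.28 CPM in ENRO (SD, n = 6 each). TILD, with a log2 fold change of -0.72, came nearest to the threshold (edgeR FDR 0.141) and passed by DESeq2 (FDR 0.0303) and by the likelihood ratio test (FDR 0.0756). For SOCS3 on day 21 the means were 123 ± 40.3 CPM in NC, 193 ± 37.8 CPM in TILD and 188 ± 23.8 CPM in TULA, with log2 fold changes of 0.65 (edgeR FDR 0.154) and 0.62 (edgeR FDR 0.229), and both passed by DESeq2 (FDR 0.0422 and 0.0646). Of the 300 pairs of groups, 1 did not overlap, against 0.926% of all tests. This was JAK1 as listed in CEFT on day 7, at 196 ± 71.4 against 340.4 ± 45.8 CPM (edgeR FDR 0.342). The summed rows overlapped there, at 342 ± 14.4 against 410.2 ± 52.5 CPM with a log2 fold change of -0.26 (edgeR FDR 0.363), and the sum did not overlap in CEFT on day 14, at 305 ± 28.7 against 389 ± 42.7 CPM (-0.35, edgeR FDR 0.247).

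Averaged over all 6 days, no member differed between a treatment and NC at an FDR of 0.05 (limma voom, with a random effect of steer), where 1.95% of all tests passed. An unadjusted p under 0.05 was found in 4 of 60 member tests, against 13.5% of all tests. JAK2 came closest, with a log2 difference of -0.41 (SE 0.130, limma FDR 0.0544) in CEFT and -0.34 (SE 0.133, limma FDR 0.114) in TILD. Over days 3 to 56 alone JAK2 in CEFT passed, at -0.46 (limma FDR 0.0314), and without the filter on low counts JAK2 passed in CEFT (limma FDR 0.0125) and in TILD (limma FDR 0.0145). Nor did the change from day 0 of any member differ from that of NC at an FDR of 0.05 in the day by treatment interaction (edgeR), where 2.14% of all tests passed. There, 16 of 60 member tests had an unadjusted p under 0.05, against 16% of all tests. The smallest values were an edgeR FDR of 0.0761 for SOCS3 in ENRO and 0.0978 for JAK1 as listed in TILD, where the sum had 0.0547. The sum of JAK1 and the MIR101-1 row passed in CEFT (edgeR FDR 0.0346) and in OXYT (edgeR FDR 0.0279). Its means in order of sampling were 455, 370, 342, 305, 383 and 399 CPM in CEFT, 455, 392, 463, 370, 417 and 350 CPM in OXYT and 428, 429, 410, 389, 381 and 415 CPM in NC.

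The members differed in what their levels went with. JAK2 was the member with the largest share of variance between days, 47%, against a median of 14.5% over 10953 genes with a mean of at least 5 CPM, and STAT3 had 39.6%. JAK3 and STAT4 varied more between steers, with 51.5% and 49.4% of their variance, against a median of 39%. STAT5A had 7.07% of its variance between days, and JAK1 as listed had 2.24%, with 20.4% for the sum. Within a group and day, the median coefficient of variation was 9.85% for STAT6, 10% for STAT5A and between 11.7% and 12.5% for TYK2, STAT3, JAK3, STAT5B and STAT4, below the median of 16.5% over genes, and 20.7% for JAK2 and 25.2% for SOCS3, above it.

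After the mean of each day was removed, the log2 levels of STAT3 and STAT5B had the highest Pearson correlation among the 45 pairs of members over all libraries, at 0.68. These libraries share steers, and the values are descriptions with no test. TYK2 and STAT5B followed at 0.60, and STAT5B with SOCS3 and STAT5A with STAT6 at 0.57. JAK2 ran opposite to JAK3, at -0.39, and to STAT6, at -0.37. STAT3 and STAT5A, which are next to each other in RefSeq with 0 entries between them, had a value of 0.52, and STAT5A and STAT5B one of 0.34. Against the mean of each marker list, JAK3 and STAT4 were most like the T cell list, at 0.58 and 0.55, SOCS3 the neutrophil list, at 0.52, and STAT3 the monocyte list, at 0.45, while STAT4 ran opposite to the B cell list, at -0.47.

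**Figure D5:**
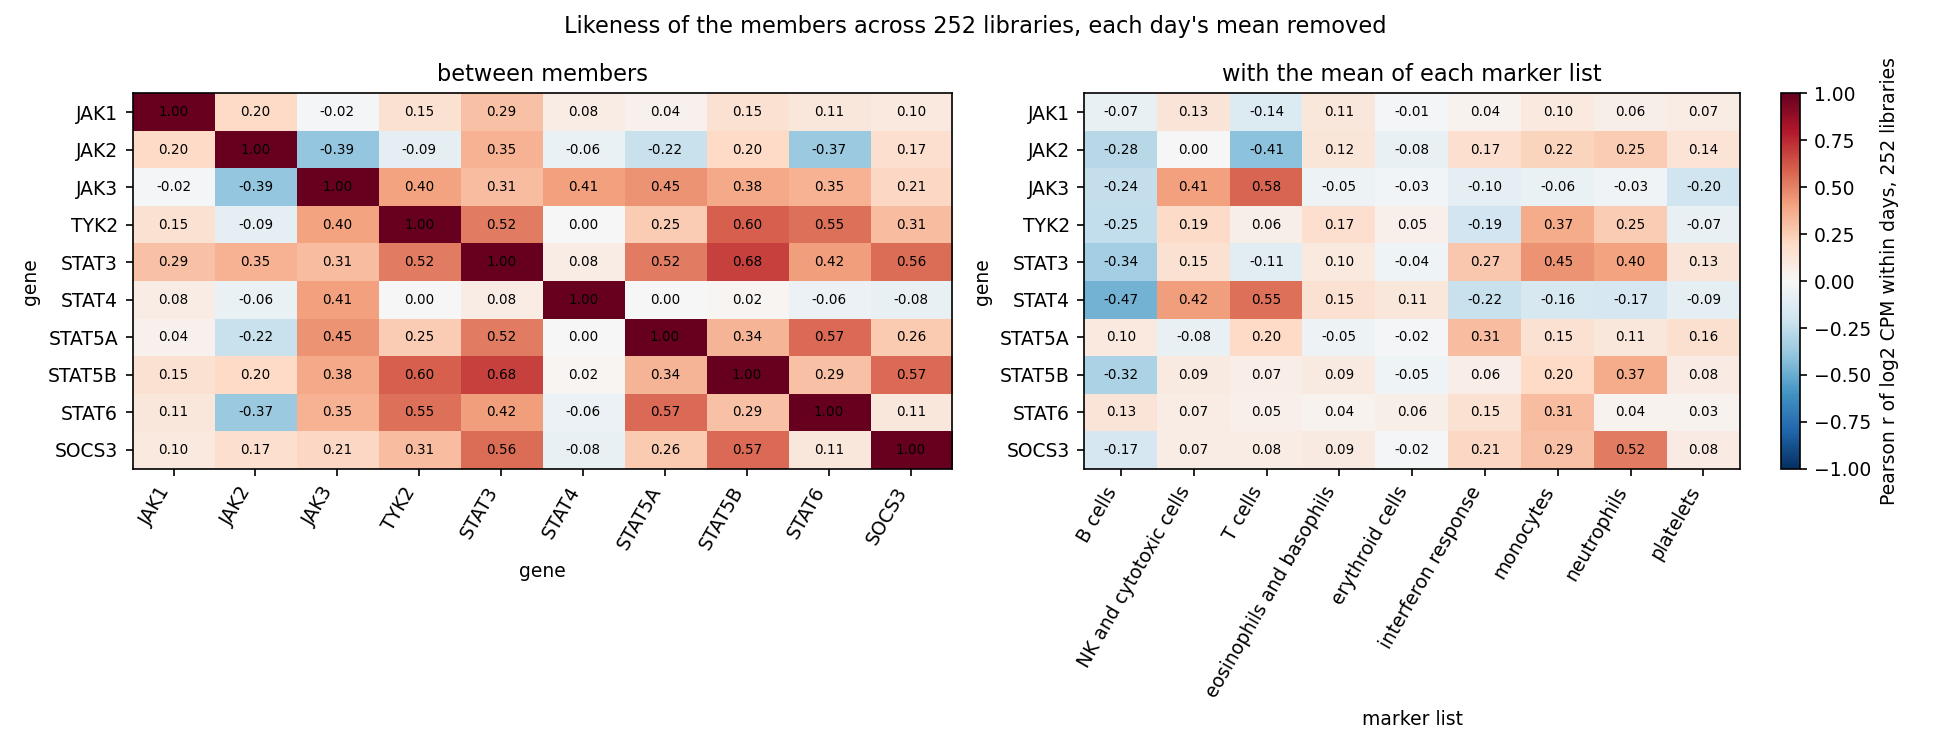
Pearson correlations of log2 CPM over all libraries after each day's mean was removed, between the 10 genes (left) and between the genes and the marker lists (right). The pairs among JAK3, TYK2, STAT3, STAT5A, STAT5B, STAT6 and SOCS3 are all positive, from 0.11 to 0.68, and JAK2 runs opposite to JAK3 and STAT6.

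The genes most like each member, 3 for each and 2 for STAT5A, were chosen by the same measure among 10953 genes. For SOCS3 they were SBNO2 (0.83), ZFP36, which destabilizes inflammatory mRNAs (0.76), and MYD88, the adaptor of Toll-like receptors (0.75). For STAT4 they were CRTAM (0.76), PRKCQ, a kinase of T cell receptor signaling (0.74), and GIMAP7 (0.71). JAK2 was most like TBC1D23 (0.86), GPBP1 (0.85) and NIN (0.85), JAK3 like SIRT2 (0.74), STIM1 (0.74) and MADD (0.73), and TYK2 like WASF2 (0.82), MYO9B (0.79) and TLN1 (0.75). STAT3 was most like TARS (0.77), PREX1 (0.75) and SEMA4D (0.74), STAT5A like CARS (0.69) and UBA1 (0.67), STAT5B like SBNO2 (0.78), PREX1 (0.77) and ADAM19 (0.77), and STAT6 like SF3A1 (0.79), BAG6 (0.79) and UBA1 (0.79). JAK1 as listed reached 0.37 at most, with IQGAP1, followed by DIAPH1 and TRIP12 at 0.34.

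Other genes of the pathway were read from lists of receptors, ligands, SOCS and PIAS proteins, phosphatases and targets. The changes are from day 0 to day 14, by the same test over all genes. Of all genes, 32.7% were higher and 29.9% lower on that day. The lists are short, and nothing is read from a count near these shares. STAT2, a factor of interferon signaling, fell from 225 to 168 CPM (log2 fold change -0.41, SE 0.0898). The median sum of 7 interferon response genes went from 1542 to 1215 CPM over the same days, and its part was not tested. Of 9 common gamma chain and related receptor genes, 3 rose and 3 fell. IL13RA1 fell from 256 to 148 CPM (-0.78) and IL2RA, the high-affinity chain of the interleukin-2 receptor, from 70.5 to 44.5 CPM (-0.64), IL15RA fell (-0.51) and IL9R rose (0.46). Of 6 gp130 and related receptor genes tested, 1 rose and 2 fell. IL27RA rose from 278 to 381 CPM (0.45) and IL6ST, which encodes gp130, fell from 57.9 to 45.8 CPM (-0.40). Of 3 interleukin-12 and interleukin-23 receptor genes, 1 rose, IL12RB1 (0.31), and 2 fell, among them IL12RB2 (-0.40). Of 4 common beta chain receptor genes, CSF2RB, the shared chain itself, fell from 301 to 211 CPM (-0.51) and 2 rose, among them IL5RA (0.42). Of 7 interferon and interleukin-10 family receptor genes tested, 1 rose and 3 fell, among them IFNGR1, from 274 to 192 CPM (-0.51), and IL10RA (-0.28).

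Of 22 cytokine ligand genes, 10 were abundant enough to be tested, of which 1 rose and 3 fell. IL12B fell from 4.17 to 2.22 CPM (-0.86), IL15 (-0.30) and IL7 (-0.26) fell, and LIF rose from 1.71 to 3.09 CPM (0.76). Of 7 other SOCS family genes, 2 rose and 4 fell. SOCS6 (-0.75), SOCS4 (-0.61) and SOCS5 (-0.53) fell, while CISH, a STAT5 target that inhibits STAT5, rose from 43.7 to 59.5 CPM (0.44). Among 10 genes of PIAS proteins and phosphatases, 8 passed the test and all 8 fell, against 29.9% of all genes that fell on that day. They included PTPN11 (-0.57), PTPRC, the leukocyte phosphatase CD45 (-0.46), PIAS2 (-0.39) and PIAS1 (-0.31). Of 17 STAT target genes, 5 rose and 7 fell, among them BCL6, a repressor of B and T cell differentiation, which fell from 278 to 124 CPM (-1.15), and MCL1, an inhibitor of cell death, which fell from 919.8 to 656 CPM (-0.49), while BCL2L1 rose (0.31). CDKN1A fell (-0.44).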

How the data were processed

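Blood RNA of 42 steers was sequenced as 252 stranded mRNA libraries. Per the labels, the authors used FastQC 0.11.9, Trimmomatic 0.39, HISAT2 2.1.1, StringTie 2.2.0 and edgeR 3.36.0 with the ARS-UCD1.3 genome. The paper names other versions of HISAT2 and edgeR. The annotation release is not given in the sources used here. The deposited counts are whole numbers that the authors derived from transcript coverage, so they estimate reads, and they carry no scaling or lane adjustment. A script of StringTie turned coverage into counts for a fixed read length.

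The 10 members and all lists were chosen with earlier results of these data known. Groups, days, steers and lanes came from the labels and column names. A gene had to exceed a CPM of 0.2 in 12 or more libraries to be tested, which 19056 of 33282 did. Tests used edgeR 4.0.16, DESeq2 1.42.0, limma 3.58.1 and sva 3.50.0 under R 4.3.3, with TMM scaling and Benjamini-Hochberg FDR over all genes tested. Days were compared by edgeR's quasi-likelihood test with steer as the replicate block (FDR 0.05), treatment with NC within a day on 12 libraries (FDR 0.1), the group effect by voom in limma, where duplicateCorrelation took steer as a random term (FDR 0.05), and the day by treatment interaction by edgeR with 5 coefficients together (FDR 0.05), where the dispersion trend was estimated on every 10th gene by abundance and interpolated. The authors adjusted for lane by ComBat_seq and fitted a mixed model, which limma and the interaction stand in for. Log2 CPM for correlations used a prior count of 2. The fits were tested on simulated data.

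Steers were sampled on all days, which pairs their libraries. After group and day means were removed, libraries of 1 steer had a median correlation of 0.358 over 630 pairs, against -0.07 for other steers of the group, and the median was above 0.1 for all 42 steers. Steers with the same number in different groups are different animals and were not paired.

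All members are described. Up to 4 genes of a pathway list were named, those past the FDR over days, with a mean of at least 1 CPM and the largest change on day 14, besides STAT2. Some genes that these rules pick are not reported here. Likeness was ranked among genes with a mean of at least 5 CPM. RefSeq names came from an assembly other than that of the counts, so no coordinates are given. Alternatives were other size factors, no low-count filter, DESeq2, the likelihood ratio test, ComBat_seq, lane terms or single lanes, NC alone, no hemoglobin genes, no steer block, each steer left out and, added after seeing the data, JAK1 summed with MIR101-1.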

Additional observations from a re-analysis of the deposited data

Results flagged for a closer look

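The values listed in this section were the highest or lowest steer of a group of 6 on a day and stood apart from the nearest of the other 5 by more than Dixon's 95% limit for the gap as a share of the range. Of 420 groups examined, 36 were of this kind, and chance alone flags about 1 in 20. The values are CPM and no cause was tested.

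TILD steer 5 held 6 of them. It was high in JAK1 on day 7 at 296 CPM (others 71.5 to 143), in JAK2 on day 21 at 31.2 CPM (others 13.5 to 19.5), in STAT5B on day 0 at 270 CPM (others 151 to 191) and on day 21 at 194 CPM (others 139 to 160), in STAT6 on day 0 at 333 CPM (others 263 to 278) and in SOCS3 on day 14 at 407 CPM (others 139 to 234). ENRO steer 6 was high in JAK3 on days 3, 7, 14 and 56, at 412, 398, 485 and 511 CPM, while the other ENRO steers ran from 235 to 285, 236 to 288, 247 to 328 and 312 to 353 CPM on those days. NC steer 7 was high in SOCS3 on day 7 at 493 CPM (others 85.5 to 186) and in JAK1 on day 56 at 392 CPM (others 203 to 248), and low on day 14 in STAT3 at 124 CPM (others 165 to 176) and STAT5A at 131 CPM (others 161 to 176). TILD steer 2 was high in JAK3 on days 7 and 21 at 430 and 482 CPM (others 238 to 293 and 322 to 363) and in STAT5A on day 7 at 194 CPM (others 156 to 164).

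The remaining NC values were JAK2 at 16.5 CPM on day 14 in steer 5 and 53.3 CPM on day 56 in steer 1, and JAK3 at 313 CPM on day 0 in steer 5 and 228 CPM on day 3 in steer 1. In CEFT, JAK1 was at 127 CPM on day 14 in steer 5 and 403 CPM on day 56 in steer 8, and on day 56 steer 6 was low in TYK2 at 127 CPM and STAT6 at 199 CPM. In FLOR, JAK1 was at 216 CPM on day 0 and SOCS3 at 410 CPM on day 14 in steer 6, TYK2 at 194 CPM on day 3 in steer 3 and STAT4 at 92.7 CPM on day 56 in steer 7. In ENRO, STAT5A was at 187 CPM on day 0 in steer 8, and in OXYT, JAK2 was at 31.4 CPM on day 0 in steer 2. In TULA, JAK2 was at 31.4 CPM on day 21 in steer 3, JAK3 at 376 CPM on day 0 in steer 8, TYK2 at 174 CPM on day 7 in steer 7, STAT3 at 215 CPM on day 3 in steer 6 and STAT5B at 141 CPM on day 14 in steer 5.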

How the results depend on the processing

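Of 333 values of members over days under the alternatives, 283 kept direction and side of the threshold, 48 no longer passed and 2 reversed without passing: JAK3 on day 3 in NC alone (-0.0879) and STAT6 on day 56 in lane 3 alone (-0.0167). Without the replicate block, 1 member was higher on day 3 and 1 on day 7, and the block changed no other count over days. With DESeq2's size factors and with DESeq2, 1 was higher on day 7. In lane 1 alone 0 were higher and 1 lower on day 3, and 1 and 3 on day 7 (4 and 7 members at an unadjusted p under 0.05). In lane 2 alone 1 was higher on days 3 and 7. In lane 3 alone 1 was higher on days 3 and 7 and 2 on day 56, and 3 were lower on day 3. In NC alone 4 changed over days, 0 were higher or lower on days 3 and 7 by edgeR (3 members at an unadjusted p under 0.05 on each), 1 was higher on days 14, 21 and 56, and 1 lower on day 56. The fits of single lanes and of NC alone hold fewer libraries. The shares of all genes by day were not at hand for the alternatives, so these counts are not read as results about the members.

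Against NC, calls became 0 in CEFT, ENRO and TILD without the filter on low counts (33 of 300 at an unadjusted p under 0.05). They became 0 in CEFT and TILD after ComBat_seq by lane, with the quasi-likelihood or the likelihood ratio test, and with lane as a term. Adding the MIR101-1 row gave 0 in TILD. DESeq2 called 2 in CEFT, 2 in ENRO, 1 in OXYT, 7 in TILD and 2 in TULA, and the likelihood ratio test 3 in TILD. Leaving out 1 steer gave 0 to 1 calls in each of CEFT, ENRO and TILD. Of all genes, 0 to 3406 passed in these fits in CEFT, 18 to 1023 in ENRO and 8 to 455 in TILD. JAK1 in TILD was kept in 3 of 12 such fits, those without NC steer 15, NC steer 5 or TILD steer 7 (FDR 0.089 to 0.197). The group effect had 2 calls without the filter, 1 over days 3 to 56 and 10 with no replicate block. The interaction had 2 with the MIR101-1 row added. The cause of these shifts was not tested. Except for the fits that left out a steer, the shares of all genes under these alternatives were not at hand. The counts are therefore not read as results about the members. The lowest count of any member was 341, and the comparisons with NC hold 6 steers a group.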

Other observations

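Against NC on the same day, 22 tests on the listed pathway genes outside the 10 members passed an FDR of 0.1 among 2370 on days 3 to 56, all on day 3, by edgeR, which is 0.928% against 0.611% of all tests, and 0 of 474 passed on day 0. On day 3, 5 of 79 genes passed in CEFT (6.33%, against 8.34% of all genes), 7 in ENRO (8.86% against 2.48%), 6 in OXYT (7.59% against 2.07%) and 4 in TILD (5.06% against 2.48%). In FLOR and TULA 0 passed, against 2.1% and 0% of all genes. NC and ENRO were on lane 1 and CEFT, OXYT and TILD on other lanes, so lane and treatment cannot be told apart in the latter. They were read after the values were seen, and the treatments share the 6 NC libraries of the day. PTPN11, a phosphatase of cytokine receptor signaling, was lower in CEFT (log2 fold change -0.49, FDR 0.0636), ENRO (-0.46, FDR 0.0411), OXYT (-0.34, FDR 0.0689) and TILD (-0.44, FDR 0.0881). IL23A, which encodes the specific chain of interleukin-23, was higher in CEFT (0.59, FDR 0.0647), ENRO (0.70, FDR 0.0293), OXYT (0.48, FDR 0.0930) and TILD (0.58, FDR 0.0992). In ENRO, where SOCS3 was higher, IL2RA (0.91, FDR 0.0452), STAT2 (0.62, FDR 0.0850), CCND3 (0.45, FDR 0.0831) and PTPN1 (0.24, FDR 0.0881) were higher too. SOCS7 was lower in ENRO (-0.36, FDR 0.0862), CEFT (-0.31, FDR 0.0537) and TILD (-0.30, FDR 0.0616). PTPRC was lower in CEFT (-0.38, FDR 0.0604), OXYT (-0.39, FDR 0.0689) and TILD (-0.34, FDR 0.0851). IL11RA was higher in CEFT (0.81, FDR 0.0802). In OXYT, IL15RA (0.99, FDR 0.0830) and SOCS6 (0.66, FDR 0.0689) were higher and IL9R was lower (-0.71, FDR 0.0779).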
